A study of Mus musculus with 20 samples.

Results

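The WNK kinases and the genes around them were described in 20 mouse liver libraries measured by RNA-seq. The set was defined by gene symbol and holds 9 of the 55421 genes in the count table: the kinases Wnk1, Wnk2, Wnk3 and Wnk4, the kinases Stk39 (SPAK) and Oxsr1 (OSR1) that they activate, the ubiquitin ligase components Klhl3 and Cul3, and the cotransporter Slc12a2 (NKCC1). Wildtype C57BL/6 mice, labelled female, received at 6 months of age a retro-orbital injection of an AAV8 vector with saCAS9 behind the Tbg promoter and a guide RNA behind the U6 promoter. The guide was directed against HIRA, the histone chaperone that deposits histone H3.3, or against Rosa26, a neutral locus, and livers were taken 3 weeks or 6 months after injection, with 5 libraries in each of the 4 groups. All groups therefore carried Cas9, and the Tbg promoter limits its expression to hepatocytes while the RNA came from bulk liver. The study gives both sexes for these animals, male in its text and female in a figure legend. The set was chosen on the readout, because Wnk4 stood out between the arms in earlier results of these data at both times, so its guide contrasts are given as a description and support nothing here.

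WNK kinases lack the catalytic lysine of other kinases at its usual place, which gave them their name (with no lysine, K). They sense chloride and osmotic stress and phosphorylate SPAK and OSR1. These in turn phosphorylate the cation-chloride cotransporters, which activates the sodium-driven importers and inhibits the potassium-driven exporters. The adaptor KLHL3 brings WNK kinases to the scaffold CUL3 for ubiquitination and degradation. The pathway is best known for salt transport in the distal nephron and for the control of blood pressure. In the liver, cell volume and chloride balance are regulated by the same transporter families.

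Total counts ranged from 19916430 to 24079736 per library, and 22867 genes with at least 10 counts in total were tested. All 10 hepatocyte markers had counts in every library, and markers of other liver cells were present as well, so fewer cells of a type and less RNA per cell cannot be told apart in these bulk samples. Hira, the targeted gene, was lower in all 5 HIRA libraries than in all 5 controls at 3 weeks, with a log2 fold change of -0.48 ± 0.14 (SE) and an adjusted p of 0.197. At 6 months its ranges overlapped, with a log2 fold change of -0.10 ± 0.14 and an adjusted p of 0.794. A Cas9 cut need not lower the RNA level of its target, so this check of the labels is partial. The library of HIRA replicate 5 at 6 months went against the female label, with 9 counts of Xist against 6286 to 8436 in the other 19 libraries and 2041 counts over 4 Y-linked genes against 0 to 13. Where a 6-month result turns on this library, the value without it is given as well.

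The 9 genes lie on 8 chromosomes of GRCm38 (mm10). Wnk4 spans 101260567 to 101277409 on the plus strand of chromosome 11. Stk39 spans 68210445 to 68472268 on the minus strand of chromosome 2. RefSeq promoter windows of GRCm38.p6, from 250 bases before to 50 bases after the annotated start, matched 8 of the 9 members. Those of Wnk4 (chr11:101260317-101260616, plus strand) and Stk39 (chr2:68471932-68472231, minus strand) are shown, since the results below turn on these genes. Capitals mark the GC box GGGCGG on either strand.

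Wnk4: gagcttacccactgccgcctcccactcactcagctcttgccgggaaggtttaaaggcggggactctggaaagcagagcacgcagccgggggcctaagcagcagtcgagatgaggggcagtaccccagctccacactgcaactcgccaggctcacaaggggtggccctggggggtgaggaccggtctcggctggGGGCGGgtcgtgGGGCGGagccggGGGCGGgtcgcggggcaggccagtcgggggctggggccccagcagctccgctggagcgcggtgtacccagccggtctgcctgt

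Stk39: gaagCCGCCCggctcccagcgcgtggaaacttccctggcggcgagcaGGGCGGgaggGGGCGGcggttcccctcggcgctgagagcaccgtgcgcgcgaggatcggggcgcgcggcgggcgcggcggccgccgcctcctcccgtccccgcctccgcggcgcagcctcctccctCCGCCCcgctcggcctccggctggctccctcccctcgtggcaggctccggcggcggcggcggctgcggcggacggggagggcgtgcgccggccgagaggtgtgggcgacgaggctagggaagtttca

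The Wnk4 window had 3 GC box matches and the Stk39 window 4, and 35.7% of all 32851 promoter windows had at least 1. The windows had 21 and 49 CpG dinucleotides and a GC content of 70.7% and 80.0%. Neither window held the E-box CACGTG, the D-box TTATGTAA or TTACGTAA, or TATAAA on either strand. These were found in 7.15%, 1.06% and 13.6% of all windows. The matches are a description of the letters and not evidence of binding.

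The levels of the 9 genes were compared per length, with the deposited FPKM. Cul3 had the highest median over the 20 libraries (22.1 FPKM, range 16.4 to 27.5), followed by Wnk1 (20.2, 15.8 to 27.7). Oxsr1 (6.00, 5.02 to 7.01) and Klhl3 (1.77, 1.50 to 2.22) came next. Cul3 and Wnk1 did not differ beyond their spread, whereas the ranges of Oxsr1 and Klhl3 lay wholly below that of the gene before them. Wnk4 had 1.11 FPKM (0.247 to 4.68), Stk39 1.05 (0.700 to 2.59) and Slc12a2 0.823 (0.593 to 1.17), and their ranges overlapped each other, those of Wnk4 and Stk39 also that of Klhl3. Wnk2 was lower (0.213, 0.0697 to 0.384) and overlapped only Wnk4 among these. Wnk3 had 0 to 2 counts per library and 18 counts in all, which is under the limit of 3 counts per library that a count of 0 allows, so no fold change is given for it and it is left out of the counts of directions. In library-scaled counts (CPM) per kilobase of merged exons, Wnk1 had a median of 2.58 and came after Oxsr1 with 5.87, so the rank of Wnk1 depends on how its length is set. The order of the other members was the same by both measures.

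**Figure D1:**
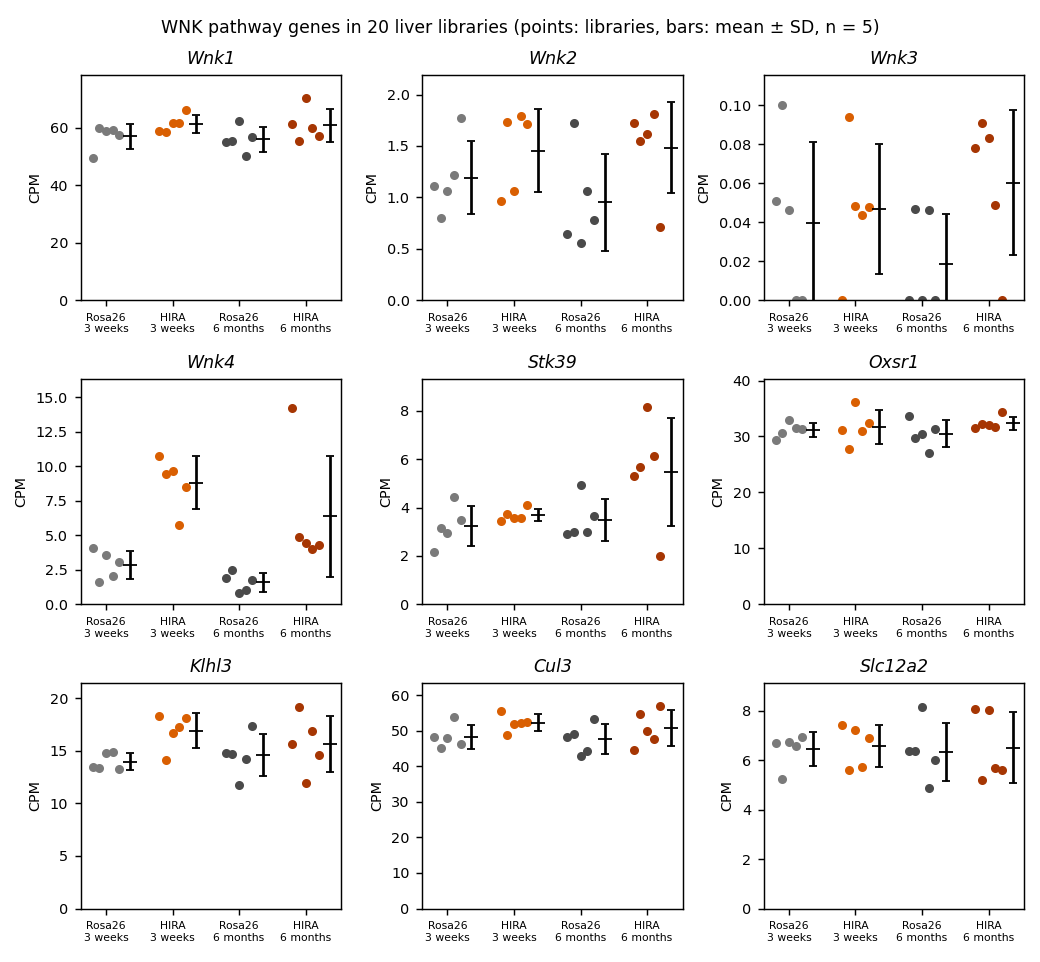
Each panel plots the library-scaled counts (CPM) of a pathway gene in the 20 libraries, by guide and time after injection (points, 5 libraries a group), with the group mean and SD as a bar, cut at 0 for Wnk3. The Wnk4 panel shows all HIRA libraries above all Rosa26 controls of the same time, and the Stk39 panel shows 4 HIRA libraries at 6 months above all controls of that time and replicate 5 below them.

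Wnk4 was the member with the largest difference between the arms at both times. At 3 weeks replicates 1 to 5 of the controls had 80, 32, 77, 45 and 66 counts of it. The HIRA libraries of that time had 234, 201, 200, 131 and 179 counts. All 5 HIRA libraries were higher than all 5 controls, by a fitted fold of 3.08 (95% interval 1.86 to 5.11). In CPM the means were 2.86 ± 1.03 (SD, n = 5) and 8.83 ± 1.91 (n = 5).

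At 6 months Wnk4 had 45, 54, 19, 23 and 38 counts in the controls. In the HIRA libraries it had 363, 107, 108, 82 and 85 counts. The arms again did not overlap, and replicate 1 of the HIRA group was far above the other 4. The fitted fold was 3.97 (95% interval 2.34 to 6.71). Without replicate 1 the log2 fold change went from 1.99 to 1.45. Without the library that went against its sex label it was 2.10. Of all genes tested, 1.45% had all 5 HIRA libraries above all 5 controls at 3 weeks and 1.41% at 6 months. These contrasts chose the gene, so nothing is read from its place among them.

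Called genes were those with an adjusted p under 0.05 in edgeR's quasi-likelihood test and a fold change over 2 in either direction, that is a log2 fold change beyond 1. At 6 months 1 member, Wnk4, was called, against 0.332% of all genes. The adjusted p of Wnk4 was 0.0141 there, and the call was lost without replicate 4 of the controls (0.0515) and when only the libraries of that contrast were fitted (0.114), with log2 fold changes of 1.87 and 1.98. It was also lost with the FPKM at a pseudocount of 1. At 3 weeks 0 members were called, against 0.114% of all genes: the adjusted p of Wnk4 was 0.0554 in edgeR and 0.0013 in DESeq2, with which it was called. It was also called in edgeR with no filter on low counts (0.0339) and with the stricter filter filterByExpr (0.0467). The same held with only the libraries of the contrast (0.0043) and with a block for the replicate number (0.0231). At an unadjusted p under 0.05 in edgeR, 2 members passed at 3 weeks, Wnk4 and Klhl3, where 8.87% of all genes did. At 6 months 2 passed, Wnk4 and Stk39, where 15.5% of all genes did. Without HIRA replicate 5 it was 3 at 6 months, with Wnk2 as well, against 17.7% of all genes. The 2 folds of Wnk4 differed by 0.36 ± 0.50 (SE) on the log2 scale between the times, with an adjusted p of 0.947 and an interval from -0.67 to 1.40. Without replicate 1 of the HIRA group at 6 months, that difference was -0.18, so its sign rests on this library.

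The share of Wnk4 within the WNK family was described in the same libraries. By deposited FPKM, Wnk4 made up 4.45 ± 1.76% (SD, n = 5) of the sum of Wnk1, Wnk2 and Wnk4 in the 3-week controls and 10.4 ± 3.0% in the HIRA livers. At 6 months the shares were 2.24 ± 1.14% and 7.80 ± 5.79%. Wnk1 was the most abundant of these kinases in every group by this measure. Per kilobase of merged exons the same shares were 20.6 ± 6.99%, 42.3 ± 6.50%, 13.0 ± 4.81% and 32.8 ± 12.2%. The size of the share thus depends on the length given to Wnk1, while the order of the 4 groups did not.

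The genes on either side of Wnk4 on chromosome 11 were not called in either guide contrast. Vps25, a subunit of the ESCRT-II complex, ends 1018 bases before Wnk4, and its log2 fold changes were 0.12 ± 0.18 (SE) at 3 weeks and 0.33 ± 0.18 at 6 months. Coa3, an assembly factor of cytochrome c oxidase, lies on the other strand with its 3′ end 559 bases after Wnk4, with -0.10 ± 0.09 at both times. The adjusted p-values of both genes were between 0.391 and 0.928. The antisense gene Gm11615 inside Wnk4 had 27 counts over all libraries, 1.24% of those of Wnk4. Summed over 5 libraries these were 2 in the controls and 13 in the HIRA livers at 3 weeks, and 3 and 9 at 6 months, with 0 to 5 counts in a library. The strand setting of the counting is not stated, so reads of overlapping genes on opposite strands may not have been told apart.

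Clock genes also moved between the arms at 3 weeks. The summed level of 9 evening clock genes, all with counts in every library, was 169 to 285 CPM in the controls and 300 to 734 CPM in the HIRA livers, without overlap. That of 5 morning clock genes was 157 to 191 and 50.9 to 139 CPM, also without overlap. At 6 months the ranges overlapped for the evening list (361 to 576 and 214 to 732 CPM) and the morning list (50.6 to 128 and 45.6 to 150 CPM), and the library with the highest Wnk4 level had the lowest evening level and the highest morning level of its time. Over the 20 libraries, Wnk4 and the evening list had r = 0.03 (Spearman's rho 0.11), and r = -0.59 after the mean of each group was removed. For the morning list r was 0.00 (rho -0.15), and 0.69 after the group means were removed. The part of the clock in the Wnk4 values was not tested.

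**Figure D2:**
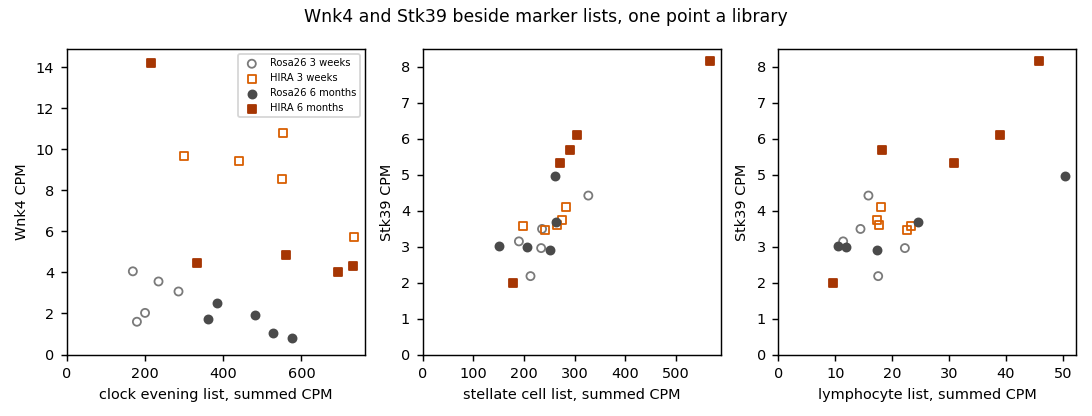
Each point is a library, with the level of Wnk4 or Stk39 (CPM) against the summed level of a marker list (CPM), by guide and time after injection. The left panel shows arms that do not overlap in evening clock level at 3 weeks and overlap at 6 months, and the middle panel shows Stk39 higher in libraries with more stellate cell marker RNA (r = 0.80 on the log2 scale, n = 20).

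Of the kinases other than Wnk4, none was called in either guide contrast. Wnk1, which is expressed in most tissues, had log2 fold changes of 0.11 ± 0.08 (SE) at 3 weeks and 0.12 ± 0.08 at 6 months, with adjusted p-values of 0.762 and 0.478. The 95% intervals were -0.05 to 0.27 and -0.04 to 0.28. Wnk2, a family member best known from brain and heart, had 13 to 44 counts per library. Its log2 fold changes were 0.29 ± 0.31 and 0.64 ± 0.31, with adjusted p-values of 0.880 and 0.328. In 4 of the 5 HIRA libraries at 6 months Wnk2 was between 1.55 and 1.81 CPM, and replicate 5 had 0.712 CPM. The controls ranged from 0.559 to 1.72 CPM, so the groups overlapped. Without replicate 5 the 6-month value was 0.81 ± 0.30, with an edgeR unadjusted p of 0.0123 and an adjusted p of 0.155. The antisense gene A230072E10Rik, which overlaps the X-linked Wnk3 and extends past it, had 106 counts in all, more than Wnk3 itself.

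**Figure D3:**
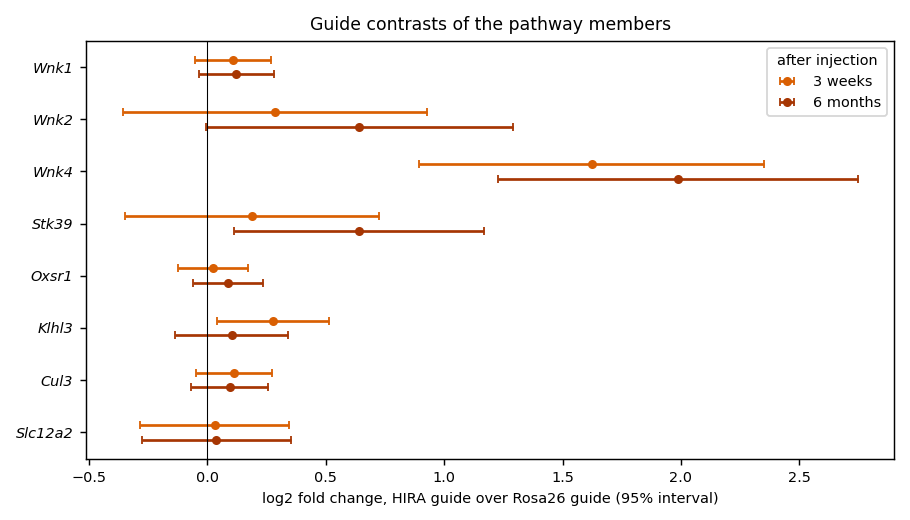
Log2 fold changes of 8 members between the HIRA and Rosa26 guides (x axis) at 3 weeks and 6 months after injection, with 95% intervals from the edgeR fit; Wnk3 is left out for its low counts. The intervals of Wnk4 lie above 0 at both times and that of Stk39 at 6 months, from 0.11 to 1.17, and that of Klhl3 at 3 weeks, from 0.04 to 0.52, while those of Wnk1, Oxsr1, Cul3 and Slc12a2 include 0 at both.

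Stk39 and Oxsr1 encode the kinases directly downstream of the WNK kinases. Stk39 had 43, 63, 64, 98 and 75 counts in the 3-week controls. The HIRA libraries of that time had 75, 80, 74, 82 and 86 counts. These ranges overlapped, and the log2 fold change of 0.19 ± 0.26 (SE) had an adjusted p of 0.917.

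At 6 months Stk39 had 68, 64, 115, 65 and 80 counts in the controls. The HIRA libraries had 136, 125, 197, 125 and 39 counts. Replicates 1 to 4 were higher than all 5 controls, and replicate 5, whose sex-linked counts went against its label, was the lowest of all 20 libraries at 1.98 CPM. On the log2 scale the arms differed by 0.64 ± 0.25, with an adjusted p of 0.220. Without replicate 5 they differed by 0.85 ± 0.19, a fold of 1.80, with an adjusted p of 0.0253, still under the fold threshold. Stk39 differed between the times by 0.45 ± 0.36 in this contrast, with an adjusted p of 0.872. Without replicate 5 this was 0.66 ± 0.26, with an edgeR unadjusted p of 0.0200 and an adjusted p of 0.604.

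The marker RNA of some other liver cells moved with Stk39. The summed level of 5 stellate cell markers was 150 to 264 CPM in the 6-month controls and 179 to 568 CPM in the HIRA livers, and the library highest in Stk39 (8.17 CPM, HIRA replicate 3) was also the highest of the 20 for this list. Over the 20 libraries, the log2 levels of Stk39 and the stellate list had r = 0.80 and rho = 0.84, r = 0.77 without the 2 libraries farthest from the median of the list, and r = 0.77 after group means were removed. For 5 lymphocyte markers, with 10.4 to 50.3 CPM in the 6-month controls and 9.56 to 45.8 CPM in the HIRA livers, r was 0.74, and 0.65 without the 2 farthest libraries. For 6 cholangiocyte markers, with 60.8 to 123 CPM and 47.1 to 156 CPM, it was 0.56, and 0.38 without the 2 farthest, of which HIRA replicate 5 at 6 months was 1. Replicate 5 of the HIRA group was the lowest of the 20 libraries in 4 of 6 lists of other cell types. All markers of these 3 lists had counts in every library, and the points share depth and library. Much of each sum was 1 gene. In the 6-month controls the median was 158 CPM for Dcn and 252 for the stellate list. It was 10.5 for Ptprc and 17.4 for the lymphocyte list, and 66.7 for Spp1 and 84.6 for the cholangiocyte list. The study names Ptprc as a marker of all immune cells, so its list is not particular to lymphocytes. The part of these cell types in the Stk39 values was not tested. No r was taken between Stk39 and the Kupffer cell, endothelial cell and neutrophil lists. The library highest in Stk39 ranked 7, 5 and 10 from the lowest of the 20 in them. For Wnk4 and the stellate list r was 0.22.

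Oxsr1, the paralogue of Stk39, stayed between 27.1 and 36.2 CPM in the 20 libraries. Its log2 fold changes were 0.02 ± 0.07 (SE) and 0.09 ± 0.07, with adjusted p-values of 0.972 and 0.605. The intervals reached at most 0.23, which is a fold of 1.18. It lies within the annotated span of Slc22a14 on the same strand, a gene with 45 counts in all.

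Klhl3 and Cul3, which together mark WNK kinases for degradation, were close to the controls. Klhl3 was 13.3 to 14.9 CPM in the 3-week controls and 14.1 to 18.3 CPM in the HIRA livers, and 4 of these were above all controls. Its log2 fold change was 0.28 ± 0.11, with an unadjusted p of 0.0249 and an adjusted p of 0.471 in edgeR. At 6 months the ranges, 11.7 to 17.3 and 11.9 to 19.1 CPM, overlapped almost wholly, with a log2 fold change of 0.10 ± 0.11 and an adjusted p of 0.737. Cul3 had log2 fold changes of 0.11 ± 0.08 and 0.09 ± 0.08, with adjusted p-values of 0.760 and 0.617, and at 6 months 0.05 ± 0.08 without HIRA replicate 5. Slc12a2, the sodium-potassium-chloride importer that SPAK and OSR1 activate, had 0.03 ± 0.15 and 0.04 ± 0.15, with adjusted p-values of 0.982 and 0.935. Its 95% interval at 6 months was -0.28 to 0.35, so a rise of up to 1.28-fold could not be told from none. Without HIRA replicate 5 the value was 0.09 ± 0.16, with an interval from -0.24 to 0.42.

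The 8 members with more than 3 counts in a library all had a fitted log2 fold change above 0 in both guide contrasts, against 49% of all genes at 3 weeks and 54.3% at 6 months. Their medians were 0.15 and 0.11, beside -0.01 and 0.03 for all genes. This count includes Wnk4, on which the set was chosen, and the intervals of most members include 0. Both are a description only.

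Between 3 weeks and 6 months, 0 of the 9 members were called in either arm by edgeR or DESeq2, against 0.162% of all genes in the Rosa26 controls and 0.0569% in the HIRA livers. At an unadjusted p under 0.05 in edgeR, 1 member passed in each arm, against 12.8% of all genes in the controls and 8.95% in the HIRA livers. Wnk4 was lower at 6 months in the controls by a log2 fold change of -0.83 ± 0.37 (SE, edgeR, unadjusted p 0.0368, adjusted p 0.349), with 1.61 ± 0.68 CPM (SD, n = 5) against 2.86 ± 1.03. In the HIRA livers its log2 fold change over time was -0.46 ± 0.33, with an adjusted p of 0.741, and it was -0.996 with an adjusted p of 0.178 without replicate 1 at 6 months. Stk39 had 0.56 ± 0.25 in the HIRA livers, with an adjusted p of 0.531, which was 0.77 ± 0.19 with an adjusted p of 0.108 without replicate 5 at 6 months. It had 0.11 ± 0.26 in the controls. The mice aged over the same interval, so age and time after injection cannot be told apart. The clock lists also differed between the control groups of the times, without overlap. The evening list had 169 to 285 CPM at 3 weeks and 361 to 576 CPM at 6 months. The morning list had 157 to 191 CPM and 50.6 to 128 CPM. The part of the clock in the changes over time was not tested. When the guide contrasts of both times were set against each other, 0 members were called by edgeR or DESeq2, against 0% of all genes in edgeR, and 0 had an unadjusted p under 0.05 in edgeR, against 6.62% of all genes. Without HIRA replicate 5 at 6 months, 1 member had, Stk39, against 7.64%.

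Other genes of the pathway were taken from 4 lists with 32 genes, of which 29 were tested. The lists were chosen with earlier results of these data known. By edgeR or DESeq2, 0 of the 29 passed both thresholds in either guide contrast. In edgeR 0.114% of all genes did at 3 weeks and 0.332% at 6 months. With the adjusted p of edgeR alone, 0 passed at 3 weeks, where 0.197% of all genes did, and 2 passed at 6 months, where 1.31% did. At an unadjusted p under 0.05 in edgeR these counts were 3 and 4, where 8.87% and 15.5% of all genes passed. In DESeq2, which gave an adjusted p for 25 of the 29, 0 and 3 had one under 0.05, against 1.56% and 6.22% of all genes with an adjusted p. Both genes past it in edgeR were cation-chloride cotransporters of the potassium-driven branch, which the kinase cascade inhibits.

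Slc12a4 (KCC1), the widely expressed potassium-chloride exporter, was higher in all 5 HIRA livers than in all 5 controls at 6 months. Its log2 CPM was 3.66 to 4.05 in the controls and 4.17 to 4.57 in the HIRA livers. This gave a log2 fold change of 0.48 ± 0.10 (SE), with an adjusted p of 0.0263 in edgeR, and 0.50 with an adjusted p of 0.0235 without HIRA replicate 5. At 3 weeks it was 0.06 ± 0.10, with an adjusted p of 0.943. In the controls Slc12a4 fell between the times by 0.49 on the log2 scale, with an adjusted p of 0.0394. The 6-month guide contrast and this time contrast share the same 5 control livers. The clock lists also differed between the control groups of the times, and their part was not tested. When each of the 20 libraries was left out in turn, the adjusted p stayed under 0.05 in 15 omissions for the guide contrast and in 9 for the time contrast. The guide contrast lost it without replicates 1, 3 or 4 of the 6-month controls or replicates 1 or 3 of the HIRA livers, with adjusted p-values of up to 0.0726. It also lost it when only the libraries of the contrast were fitted (0.141) and with FPKM at pseudocounts of 1 (0.0648) and 0.1 (0.0592). The time contrast lost it with only its own libraries (0.0550) and in the 3 fits of FPKM (0.162 to 0.207).

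Slc12a5 (KCC2), best known as the chloride exporter of neurons, was low here, with a mean of 2.72 CPM. Its log2 CPM was 0.79 to 1.51 in the 6-month controls and 1.39 to 2.14 in the HIRA livers, and 4 of the 5 HIRA libraries were above all controls. The difference of 0.73 ± 0.18 (SE) on the log2 scale had an adjusted p of 0.0445. Without HIRA replicate 5 it was 0.67, with an adjusted p of 0.0675, and in all the adjusted p stayed under 0.05 in 6 of the 20 omissions of a library, with values from 0.0296 to 0.127. With only the libraries of the contrast it was 0.199. It was 0.0578 with a block for the replicate number, 0.0537 with DESeq2 size factors in edgeR and 0.0651 with no filter. With FPKM at pseudocounts of 1 and 0.1 it was 0.0701 and 0.0796. In DESeq2 it stayed under 0.05 (0.0081), and so it did with filterByExpr. The 6 omissions were replicates 1 and 4 of the 3-week controls, HIRA replicate 5 at 3 weeks, replicate 3 of the 6-month controls, and HIRA replicates 2 and 3 at 6 months. At 3 weeks it was 0.41 ± 0.18, the largest of its list among genes with at least 1 CPM, with an adjusted p of 0.511. Over the 5 cotransporters with a mean of at least 1 CPM, of 7 tested, the median log2 fold change was 0.06 at 3 weeks and 0.23 at 6 months, beside -0.01 and 0.02 for the 12903 genes at that level, and 4 of the 5 were above 0 at each time.

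**Figure D4:**
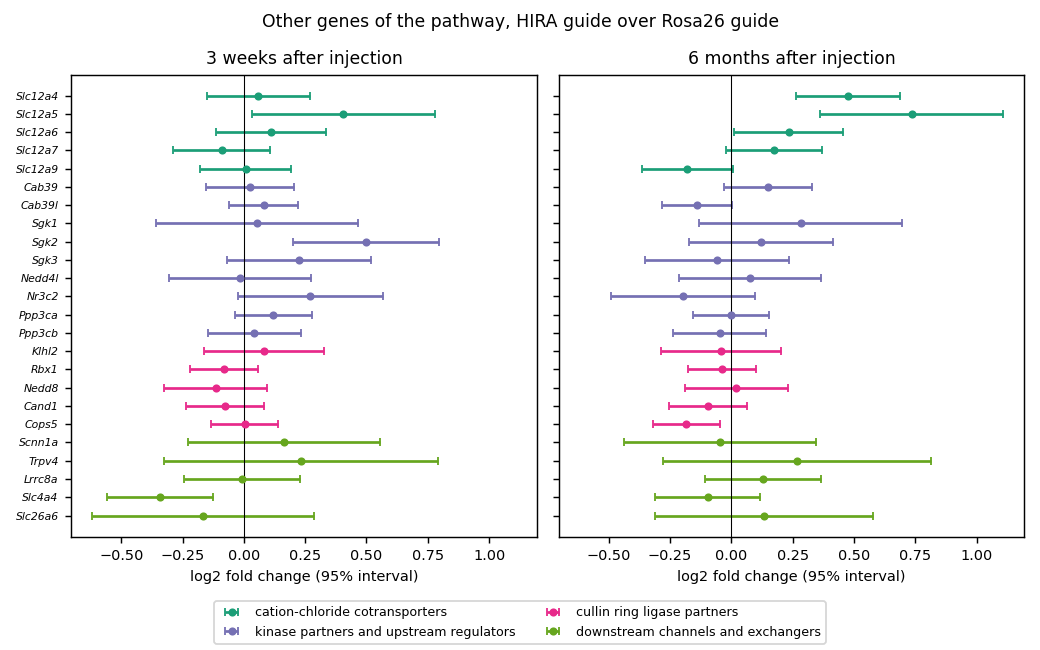
Log2 fold changes between the HIRA and Rosa26 guides (x axis, 95% intervals) at 3 weeks and 6 months for the genes of 4 pathway lists with a mean of at least 1 CPM, coloured by list. Slc12a4 and Slc12a5 have the highest values of the plotted cotransporters at 6 months, 0.48 and 0.73, while the cullin ring ligase partners stay within 0.2 of 0.

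In the other 3 lists 0 genes passed an adjusted p of 0.05 in edgeR in the guide contrasts, and 1, Cops5 at 6 months, in DESeq2. Of all genes, 0.197% passed it at 3 weeks and 1.31% at 6 months in edgeR. In DESeq2 1.56% and 6.22% of the genes with an adjusted p did. Only genes with a mean of at least 1 CPM were ranked by size within these lists. Among 10 tested kinase partners and upstream regulators, the ranked genes with the largest differences were Sgk2 at 3 weeks (0.50 ± 0.14, SE, adjusted p 0.198) and Sgk1 at 6 months (0.28 ± 0.20, adjusted p 0.538). Among 5 tested partners of the cullin ring ligase, they were Nedd8, the modifier that activates cullins (-0.12 ± 0.10, adjusted p 0.837), and Cops5, the protease subunit that removes it (-0.18 ± 0.07, adjusted p 0.170). Among 7 tested channels and exchangers, they were the sodium bicarbonate cotransporter Slc4a4 at 3 weeks (-0.34 ± 0.10, adjusted p 0.223) and the osmosensitive channel Trpv4 at 6 months (0.27 ± 0.26, adjusted p 0.688). Over the genes at that level, the medians of these lists were between -0.08 and 0.13 in both contrasts.

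The genes whose pattern was most like that of Wnk4 were ranked by Pearson's r of log2 CPM over the 20 libraries, among 12903 genes with a mean of at least 1 CPM. They were Ovgp1, an oviductal glycoprotein (r = 0.91, rho 0.95), Slc30a3, a zinc transporter (0.90, rho 0.89), Rtkn (0.90, rho 0.91), Abhd8 (0.88, rho 0.89) and Zbtb2 (0.88, rho 0.89). Since the arms hardly overlap for Wnk4, r was also taken within each arm of 10 libraries. It was 0.82 in the HIRA arm and 0.78 in the controls for Ovgp1, and 0.95 and 0.90 for Slc30a3. For Rtkn, Abhd8 and Zbtb2 these values were between 0.70 and 0.86. Without the 2 libraries farthest from the Wnk4 median, both 6-month controls, the 5 values were between 0.84 and 0.91. After group means were removed, r was 0.74 for Ovgp1, 0.68 for Rtkn, 0.78 for Abhd8 and 0.56 for Zbtb2. The named genes with the highest r were then Slc30a3 (0.90), Hsd17b6, a hydroxysteroid dehydrogenase (0.85), and Siah2, a ubiquitin ligase (0.85). Among them ranked 1 unnamed gene model. With group means kept, Siah2 had r = 0.43, and its log2 fold changes between the arms were -0.12 and 0.01. Slc30a3 was the gene named by both measures, with log2 fold changes of 1.04 and 2.03 between the arms at 3 weeks and 6 months. These genes were selected from all others for their likeness, so the values are a description with no test.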

How the data were processed

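Liver RNA was measured by poly-A-selected RNA-seq in 20 libraries, 4 groups of 5, taken from the sample titles. The reads were aligned by the authors to mm10 with STAR, and the deposited gene counts are whole numbers without normalization. For the counting, the methods name HOMER and the submitters' processing notes list HTSeq and Cufflinks, and no strand setting is given in the sources used here. The deposited FPKM table, scaled by the authors to gene length and library size, had 629498 blank cells. FPKM were used for levels between genes and, as log2(FPKM + 1) or log2(FPKM + 0.1) with limma 3.58.1, as an alternative over the 17027 tested genes with a value in every library. Fold changes on that scale understate those of low genes.

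Genes with at least 10 counts in total were fitted with edgeR 4.0.16 (R 4.3.3, TMM, quasi-likelihood test, a mean for each group over all 20 libraries), with Benjamini-Hochberg adjustment over 22867 genes. All adjusted p-values are from edgeR unless another tool is named, and the 95% intervals use its moderated degrees of freedom. CPM are scaled by TMM library sizes, and log2 CPM have a prior count of 2. The thresholds were an adjusted p of 0.05 and a log2 fold change of 1, as in the study. DESeq2 1.42.0 and the other alternatives are listed in the closing section. The members and gene lists were chosen with earlier results of these data known. Named genes are the members, Hira, the genes of each pathway list past an adjusted p of 0.05 or else the gene with the largest change at 1 CPM or more, the neighbours of Wnk4, and the genes most like it (5 by r, 3 after group centring). Marker lists are given as summed levels, with the largest gene of 3 lists named. Identifiers (98.5%) matched GENCODE M21.

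On simulated data, with 200 of 22867 genes changed in the 6-month comparison, the fit recovered 193 with 3 false calls. The changed genes all had a mean of at least 1 CPM and changes larger than the fold threshold. The result therefore does not cover smaller changes or lower genes. Replicate pairs differed by more than sampling noise (40 pairs). The correlation of deviations from the group means was -0.12 to 0.30 over 10 same-numbered pairs, and exceeded 0.1 in 4. Differently numbered pairs were not set beside these, so whether the replicate numbers pair the samples is not settled. The labels do not state that each library came from a separate mouse, and p-values measure the spread between libraries.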

Additional observations from a re-analysis of the deposited data

Results flagged for a closer look

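In 5 of 48 tests of a gene in a group of 5 libraries, a single library stood apart from the other 4 by Dixon's ratio over 0.71, which chance gives in about 1 in 20 groups. Wnk4 had a log2 CPM of 3.84 in HIRA replicate 1 at 6 months, with the next library at 2.31. Wnk2 was at -0.32 in HIRA replicate 5 at 6 months, with the next at 0.71. In the same library Oxsr1 was the highest of its group at 5.11, with the next at 5.02. Wnk1 was at 5.63 in Rosa26 replicate 1 at 3 weeks, with the next at 5.85, and Slc12a2 at 2.42 in Rosa26 replicate 2 at 3 weeks, with the next at 2.74.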

How the results depend on the processing

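The alternatives were a replicate block, DESeq2 size factors (RLE normalization) in edgeR, DESeq2, no filter on low counts, filterByExpr, only the libraries of the contrast, the 3 FPKM fits, no fold threshold and the omission of each of the 20 libraries. At 3 weeks the count of members called went from 0 to 1 (Wnk4) with the replicate block (adjusted p 0.0231), DESeq2, no filter on low counts, filterByExpr and only the libraries of the contrast, and was 0 to 1 over the omissions. It was 1 without Rosa26 replicate 3, HIRA replicate 1 or HIRA replicate 5 of the 6-month groups. At 6 months the count went from 1 to 0 with only the libraries of the contrast, with FPKM at a pseudocount of 1 and with FPKM at a mean of at least 1, and was 0 to 1 over the omissions, with 0 without Rosa26 replicate 4 (adjusted p 0.0515). Over all alternatives the log2 fold change of Wnk4 was 0.85 to 1.78 at 3 weeks and 0.87 to 2.20 at 6 months, lowest with FPKM at a pseudocount of 1. What same-numbered libraries share is not known. The replicate block changed no other call of a member, and 0 members were called under any alternative in the time contrasts or the difference between times. Slc12a4 at 6 months had an adjusted p of 0.0013 to 0.141 which passed 0.05 without Rosa26 replicates 1, 3 or 4 or HIRA replicates 1 or 3 of that time, and with only the libraries of the contrast and FPKM at pseudocounts of 1 and 0.1. Slc12a5, with 0.0081 to 0.199, stayed under 0.05 in 6 of the 20 omissions and passed it with the replicate block (adjusted p 0.0578), RLE (0.0537), no filter (0.0651), only the libraries of the contrast, and FPKM at both pseudocounts. The fall of Slc12a4 in the controls kept an adjusted p under 0.05 in 9 of 20 omissions and passed it with only the libraries of the contrast (0.0550) and in the 3 FPKM fits (0.162 to 0.207). The cause of these changes was not tested.

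Values that changed sign were not called, and the largest of them was 0.36 (Wnk4, difference of guide effects). In the FPKM fits (pseudocounts of 1 and 0.1, and a mean of at least 1), the change over time in HIRA of Wnk1 was 0.023, 0.023 and 0.023, and the difference of guide effects of Cul3 was 0.13, 0.14 and 0.13. With FPKM at pseudocounts of 1 and 0.1, Wnk2 had -0.050 and -0.24 over time in HIRA and -0.015 and -0.055 for the difference of guide effects, and Slc12a2 had 0.0016 over time in HIRA at a pseudocount of 1. For the difference of guide effects, Wnk1 had -0.0054 with RLE and -0.0048 with DESeq2, and Slc12a2 had -0.014 with RLE, -0.011 with DESeq2 and -0.0078 with filterByExpr. Over the omissions of a library, this difference was -0.062 to 0.027 for Cul3, -0.092 to 0.11 for Slc12a2, -0.042 to 0.061 for Wnk1 and -0.18 to 0.58 for Wnk4. The change over time in HIRA was -0.083 to 0.0061 for Cul3, -0.011 to 0.085 for Oxsr1, -0.10 to 0.059 for Slc12a2, -0.061 to 0.020 for Wnk1 and -0.087 to 0.20 for Wnk2. In Rosa26 it was -0.066 to 0.021 for Cul3, -0.0091 to 0.13 for Klhl3, -0.072 to 0.0066 for Oxsr1, -0.12 to 0.062 for Slc12a2, -0.046 to 0.25 for Stk39 and -0.073 to 0.0098 for Wnk1. The guide contrast was -0.031 to 0.065 for Oxsr1 and -0.034 to 0.081 for Slc12a2 at 3 weeks and -0.063 to 0.14 for Slc12a2 at 6 months. No fold changes of Wnk3 are given, since its 18 counts leave no fold to give, and the low counts of Wnk2 limit what could be seen for it.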
